A study of Homo sapiens with 6 samples.

Results

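The 46 genes described here encode proteins that bring new polypeptides into the endoplasmic reticulum (ER), fold them there, or hand misfolded ones over for degradation. They were taken by symbol from a table of 63241 genes measured in MDA-MB-231 cells, a human triple-negative breast cancer line. All 46 were found and all 46 had a mean of at least 1 TPM, the limit for testing that 12999 genes reached. TPM (transcripts scaled to a fixed library total) is a gene's share of all transcripts in a library after division by transcript length, so TPM levels can be compared between genes. The genes were divided by role into folding (24 genes), translocation (11 genes) and degradation (11 genes).

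Of 6 RNA-seq libraries, 3 were from non-treated control cells and 3 from cells cultured for 24 h with ArA at 40 µM. The study's title names arachidonic acid, an unsaturated fatty acid carried by membrane phospholipids. No vehicle is named for the controls. The comparison addresses how transcript levels differ once cells have been given the fatty acid. Nothing in the labels says that replicates came from separate cultures, so p-values measure only how these libraries vary, and that variation may be technical. In bulk RNA, fewer cells of a type and less RNA per cell cannot be told apart.

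Proteins bound for secretion or for membranes enter the ER through the SEC61 channel and lose their signal peptide to signal peptidase. Chaperones such as HSPA5 (BiP), the calnexin and calreticulin lectins, disulfide isomerases and prolyl isomerases then fold them. Chains that fail are recognised, drawn back to the cytosol through the SEL1L-SYVN1 complex, pulled out by the VCP ATPase and degraded, a route called ERAD. When unfolded proteins accumulate, the unfolded protein response raises transcription of many of these genes, partly through ER stress response elements (ERSE) that ATF6 binds together with NF-Y.

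Promoter sequences are shown first because that element is what ties the best known of these genes to ER stress. RefSeq windows on GRCh38.p14, from 250 bases before to 50 bases after a gene's start, were found for 42 of the 46 genes. ERSE was searched as CCAAT, 9 unspecified bases and CCACG, and ERSE-II as ATTGG, 1 unspecified base and CCACG. The UPRE, an element bound by XBP1 and ATF6, was searched as TGACGTGG, and all 3 were searched on both strands. The 250 bases before the HSPA5 start are printed 5′ to 3′ along the gene's strand, the reverse strand of chr9:125241344-125241593, with the fixed letters of its ERSE match in capitals.
HSPA5: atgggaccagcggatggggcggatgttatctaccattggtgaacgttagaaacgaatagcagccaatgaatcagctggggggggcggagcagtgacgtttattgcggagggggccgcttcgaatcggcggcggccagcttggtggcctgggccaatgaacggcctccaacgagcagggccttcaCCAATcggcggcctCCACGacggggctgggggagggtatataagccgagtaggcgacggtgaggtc

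Exact ERSE matches were found in 7 of the 42 genes with a window (16.7%), against 0.0916% of 27305 genes with a window. Those 7 were all folding genes, out of 22 folding genes with a window (31.8%), and none of the 10 translocation and 10 degradation genes had a match. The sites are shown to let the spacer between the CCAAT and CCACG letters, in capitals, be compared.
HSPA5, chr9:125241391-125241409, reverse strand: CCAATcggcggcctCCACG
HSP90B1, chr12:103930216-103930234, forward strand: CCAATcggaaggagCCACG
HSP90B1, chr12:103930321-103930339, reverse strand: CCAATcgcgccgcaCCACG
CALR, chr19:12938384-12938402, reverse strand: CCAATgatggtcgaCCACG
CANX, chr5:179698778-179698796, forward strand: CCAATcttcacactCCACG
PDIA6, chr2:10812853-10812871, reverse strand: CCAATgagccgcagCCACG
CRELD2, chr22:49918554-49918572, reverse strand: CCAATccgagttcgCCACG
ERO1B, chr1:236282183-236282201, forward strand: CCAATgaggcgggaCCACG

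ERSE-II was matched in HYOU1, SDF2L1 and HERPUD1, or 7.14% of the 42 genes against 0.0696% of all genes with a window. HYOU1 held the letters at 2 places, and a UPRE match overlapped 1 of them.
HYOU1, chr11:119057380-119057390, forward strand: ATTGGaCCACG
HYOU1, chr11:119057274-119057284, forward strand: ATTGGaCCACG
SDF2L1, chr22:21642114-21642124, reverse strand: ATTGGtCCACG
HERPUD1, chr16:56932025-56932035, forward strand: ATTGGgCCACG
The UPRE letters were in 6 of the 42 genes (14.3%; SSR3, SEC62, TXNDC5, VCP, HYOU1 and TXNDC11), against 0.927% of all genes. A match is a run of letters in this window, not a measured binding site.

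No member passed the test between groups. In limma on log2(TPM + 1), 0 of 46 had an adjusted p of 0.05 or less, where 3 of the 12999 genes did (0.0231%). FBXO2 and SPCS2 had an unadjusted p under 0.05, 2 of 46 beside 2.78% of all genes. Differences in mean TPM ran from 0.942-fold for ERO1B to 1.64-fold for FBXO2. The 95% intervals of all 46 fitted differences lay within 2-fold in either direction, 38 of them within 1.5-fold and 9 within 1.25-fold. The added 1 TPM shrinks the fitted difference of a low gene: the log2 fold change of FBXO2 was 0.64 with it and 0.71 with a pseudocount of 0.1.

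Small positive differences were nevertheless common among the members. The log2 fold change was above 0 for 44 of 46 genes, all but ERO1B and SEC61G, beside 68.9% of all genes. It was above 0 for 42 of 46 after median-of-ratios scaling, 38 after quantile normalization and 40 in TPM rescaled without mitochondrially encoded genes, where 51%, 51.7% and 49.3% of all genes were above 0. The median log2 fold change of all genes was 0.06, and values called relative below have this median subtracted. By that measure 42 of 46 members lay above the median of all genes, beside 50% of all genes by definition. ERO1B, SEC61G, SPCS3 and SSR3 lay below it. By role, 23 of 24 folding, 8 of 11 translocation and 11 of 11 degradation genes lay above it. These counts were 16, 6 and 6 without control replicate 3, and 16, 7 and 5 without ArA replicate 1. Leaving out control replicate 2 gave 15, 6 and 9, and control replicate 1 gave 24, 8 and 11. Leaving out ArA replicate 2 gave 22, 8 and 11, and ArA replicate 3 gave 20, 8 and 10. With every library kept, the median over the members was 0.07, with an interquartile range of 0.03 to 0.11. The range for all genes was -0.08 to 0.08.

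**Figure D1:**
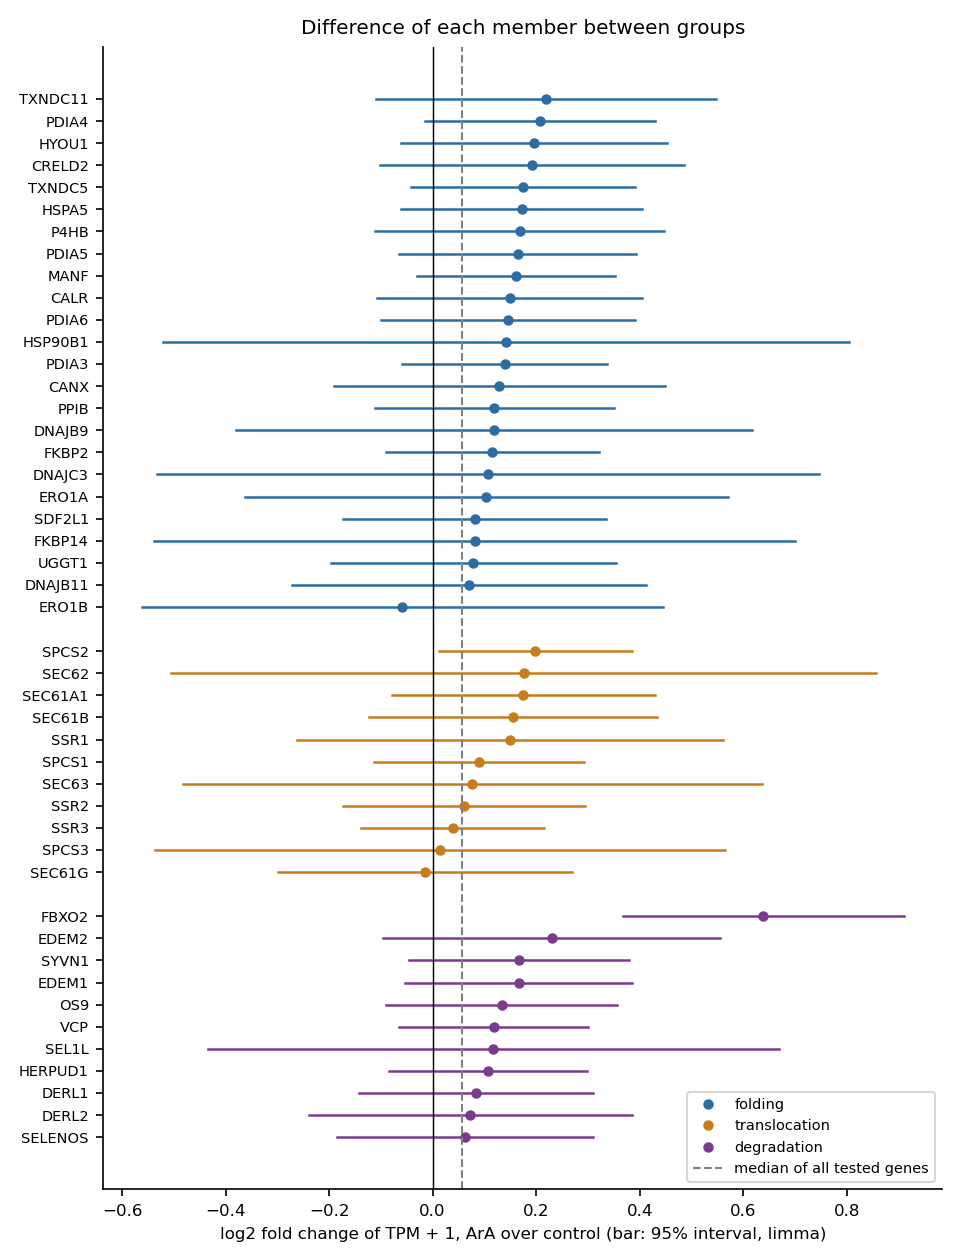
Log2 fold change of TPM + 1 between ArA and control libraries (x axis) for each of the 46 genes, by role; points are limma estimates, bars 95% intervals and the dashed line the median of all tested genes. Most points lie between 0.05 and 0.25, FBXO2 stands at 0.64, and the bars of FBXO2 and SPCS2 alone do not cross 0.

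The groups did not overlap for 6 members, and all 6 were higher in ArA libraries, namely FBXO2, SPCS2, PDIA4, MANF, TXNDC5 and SYVN1. That is 6 of 46 beside 6.84% of all genes higher without overlap, and 0 of 46 beside 1.21% lower (8.05% in either direction). After median-of-ratios scaling FBXO2 and SPCS2 were the members still without overlap, as also in TPM rescaled without mitochondrially encoded genes. After quantile normalization it was FBXO2 alone. In those scalings 2.93%, 3.36% and 3.01% of all genes were higher without overlap. On hg38 (GENCODE v29) SPCS2 lies at chr11:74949247-74979031 and MANF at chr3:51385047-51389397 on the forward strand. PDIA4 lies at chr7:149003062-149028641, TXNDC5 at chr6:7881517-7910814 and SYVN1 at chr11:65121780-65134533 on the reverse strand.

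**Figure D2:**
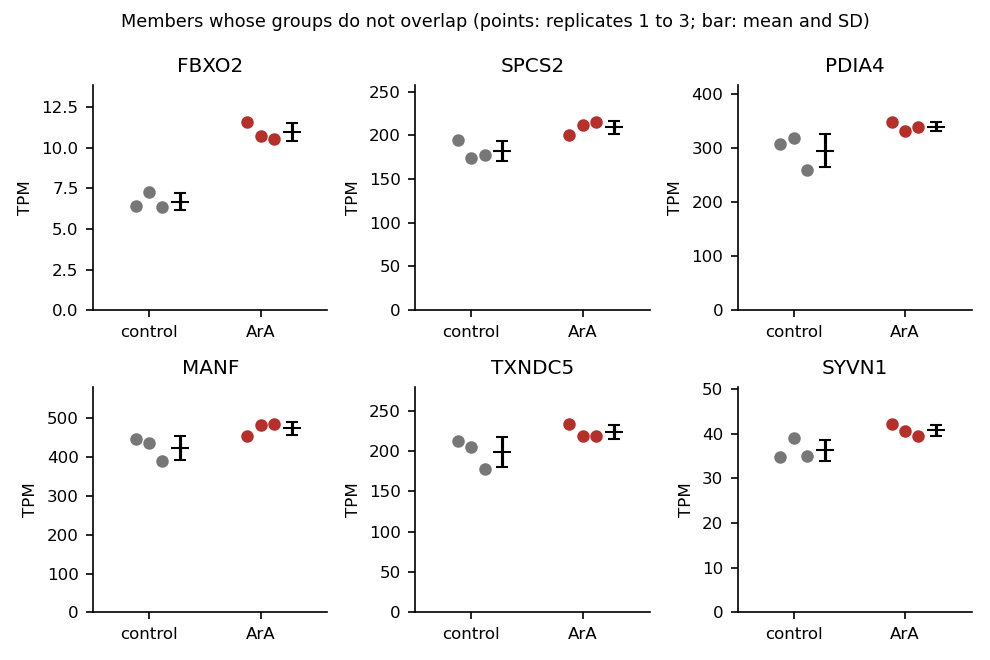
TPM (y axis, from 0) in each control (grey) and ArA (red) library for the 6 members whose groups do not overlap, replicates 1 to 3 from left to right, with the mean and SD. The gap is wide for FBXO2, between 7.28 and 10.6 TPM, and narrow for the others.

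Among the soluble chaperones, HSPA5, the ATP-driven chaperone that also restrains the stress sensors, had 728, 593 and 603 TPM in control libraries 1 to 3. In ArA libraries 1 to 3 it had 682, 742 and 737 TPM. Control replicate 1 lay between the ArA values, so the groups overlapped, with a log2 fold change of 0.17 (SE 0.10, limma adjusted p = 0.999). Its 95% interval ran from -0.06 to 0.41. HYOU1, a large HSP70 relative that acts as a nucleotide exchange factor for HSPA5, had 242, 287 and 225 TPM across the controls and 307, 281 and 272 TPM with ArA. Here it was control replicate 2 that reached into the ArA range. MANF, a secreted ER-resident cofactor of HSPA5, had 447, 437 and 389 TPM across the controls and 455, 482 and 485 TPM with ArA. The closest pair was control replicate 1 and ArA replicate 1, and no values overlapped. DNAJB11, an HSPA5 co-chaperone of the J-domain family, had 132, 88.3 and 105 TPM across the controls and 109, 111 and 118 TPM with ArA, all 3 ArA values inside the control range. DNAJB9 and DNAJC3 are further J-domain partners of HSPA5, and HSP90B1 is the ER member of the HSP90 family. With SDF2L1 and CRELD2, both induced by ER stress, they had relative log2 fold changes from 0.03 to 0.14, and in each of the 5 the groups overlapped.

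The lectin chaperones hold glycoproteins for folding. CALR, soluble calreticulin, had 1619, 1841 and 1441 TPM across the controls and 1956, 1766 and 1695 TPM with ArA. UGGT1, the sensor that puts glucose back on unfolded glycoproteins, had 38.2, 31.3 and 35.2 TPM across the controls and 33.1, 37.4 and 40.3 TPM with ArA. The groups overlapped for both, as they did for CANX, membrane-bound calnexin, at 850 ± 162 and 918 ± 20.6 TPM (SD, n = 3 each).

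Disulfide isomerases had the highest median relative log2 fold change of the 4 folding subgroups, 0.11 over 9 genes. PDIA4 had 307, 319 and 260.0 TPM across the controls and 348, 331 and 339.6 TPM with ArA. No values were shared between its groups, and it had the smallest p of the folding genes, with a log2 fold change of 0.21 (SE 0.09, limma adjusted p = 0.999). TXNDC5, another isomerase of this family, had 212, 206 and 177 TPM across the controls and 233, 219 and 219 TPM with ArA, also without overlap. TXNDC11, a thioredoxin-domain protein that works with the EDEM mannosidases, had 15.3, 17.7 and 13.7 TPM across the controls and 20.1, 18.9 and 15.8 TPM with ArA. Its groups overlapped, although its relative log2 fold change of 0.16 was the highest of the folding genes. P4HB, the founding protein disulfide isomerase, had 888, 1038 and 806 TPM across the controls and 1139.55, 981 and 944 TPM with ArA, with control replicate 2 above both of the lower ArA libraries. ERO1B, an oxidase that recharges these isomerases, had 6.25, 3.57 and 5.26 TPM across the controls and 3.70, 5.27 and 5.23 TPM with ArA. Its relative log2 fold change of -0.12 was the lowest of all 46, and its groups overlapped fully. PDIA3, PDIA5, PDIA6 and the oxidase ERO1A lay between 0.05 and 0.11 on the relative log2 scale.

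Prolyl isomerases speed a slow step in folding. PPIB, cyclophilin B, was the most abundant member, with 2301, 2506 and 2068 TPM across the controls and 2706, 2403 and 2352 TPM with ArA. FKBP2 had 161, 152 and 153 TPM across the controls and 184, 166 and 156 TPM with ArA. FKBP14 had 20.1, 10.4 and 16.6 TPM across the controls and 12.1, 18.3 and 18.9 TPM with ArA. All 3 overlapped between groups, at relative log2 fold changes from 0.03 to 0.06.

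Translocation genes were centred lower, with a median relative log2 fold change of 0.03 and 8 of 11 above the median of all genes. In the SEC61 channel, the pore subunit SEC61A1 had 322, 363 and 290.3 TPM across the controls and 402, 356 and 342 TPM with ArA. The small subunit SEC61G had 884, 936 and 942 TPM across the controls and 757, 983 and 1017 TPM with ArA. Within ArA these 2 subunits of a single channel were ordered oppositely, with replicate 1 the highest for SEC61A1 and the lowest for SEC61G. SEC62, which helps chains that enter after translation, had 65.3, 31.9 and 54.9 TPM across the controls and 40.7, 61.5 and 66.5 TPM with ArA. SEC61A1, SEC61G and SEC62 all overlapped between groups.

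The TRAP complex (SSR genes) sits beside the channel and aids certain signal peptides. SSR1 had 144, 91.9 and 118 TPM across the controls and 111, 138 and 139.6 TPM with ArA. SSR2 had 441, 473 and 394 TPM across the controls and 498, 429 and 436 TPM with ArA, and SSR3 had 321, 328 and 297 TPM and 331, 311 and 329 TPM. None of the 3 was free of overlap, and SSR3 was listed at -0.02 on the relative log2 scale.

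Of the signal peptidase subunits, SPCS2 had 195, 174 and 178 TPM across the controls and 200.4, 212 and 215 TPM with ArA. Its groups did not overlap, and its log2 fold change was 0.20 (SE 0.08, limma adjusted p = 0.999), with a 95% interval of 0.01 to 0.39. SPCS1 had 227, 225 and 194 TPM across the controls and 229, 231 and 225 TPM with ArA, which overlapped only through ArA replicate 3. SPCS3, which supports the catalytic subunits, had 80.0, 42.2 and 63.0 TPM across the controls and 50.5, 63.2 and 68.9 TPM with ArA. The 3 subunits of 1 enzyme thus had mean TPM ratios of 1.148 (SPCS2), 1.06 (SPCS1) and 0.986 (SPCS3), with the widest control spread in SPCS3.

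Degradation genes had a median relative log2 fold change of 0.06, and all 11 lay above the median of all genes. That count depended on single libraries. With 1 library left out it ranged from 5 (without ArA replicate 1) to 11, and it was 6 without control replicate 3. FBXO2 codes for a cytosolic F-box protein that recognises high-mannose glycans on proteins leaving the ER and presents them to a ubiquitin ligase; it is not an ER resident. It had 6.42, 7.28 and 6.33 TPM across the controls and 11.6, 10.7 and 10.6 TPM with ArA, or 6.68 ± 0.524 and 10.95 ± 0.545 TPM (SD, n = 3 each). Every ArA library was above every control library, at a 1.64-fold difference of means. In the limma fit this was 0.64 on the log2 scale with an SE of 0.12 and a 95% interval of 0.37 to 0.91 (adjusted p = 0.69). Over the alternatives its limma adjusted p ranged from 0.0125 to 1 and passed only with array weights, a fit that weights each library by its estimated quality and called 1.65% of all genes. FBXO2 was the member with the highest relative log2 fold change, 0.58, at percentile 99.2 of all tested genes.

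FBXO2 (ENSG00000116661) is a reverse-strand gene at chr1:11637018-11655785 on hg38 (GENCODE v29). It overlaps FBXO44, a related F-box gene on the forward strand from 11654375 to 11663327, at the end that holds its start. FBXO44 had 3.62, 5.46 and 5.85 TPM across the controls and 4.09, 5.08 and 3.88 TPM with ArA. Whether the counting used strand is not given in the sources used here, so reads from the shared stretch may not be separated. FBXO6, another family member nearby, was listed at 0.99 to 1.05 TPM in control and 0.69 to 0.81 TPM in ArA libraries, below the limit for testing.

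The other recognition genes had smaller differences. OS9, a lectin that delivers trimmed glycoproteins to the membrane complex, had 268, 261 and 231 TPM across the controls and 297, 255 and 282 TPM with ArA. EDEM1 and EDEM2, which trim mannose from chains bound for degradation, had relative log2 fold changes of 0.11 and 0.17, and both overlapped between groups.

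In the membrane complex, SYVN1, the ubiquitin ligase HRD1, had 34.8, 39.0 and 35.05 TPM across the controls and 42.1, 40.7 and 39.6 TPM with ArA, without overlap. Its span overlaps FAU on the same strand, at a mean of 784 TPM, and MRPL49 on the other strand, so its level is uncertain. HERPUD1, a stress-induced scaffold of the complex, had 147, 142 and 128 TPM across the controls and 149.8, 153 and 146 TPM with ArA, overlapping only where ArA replicate 3 was below control replicate 1. SELENOS, a selenoprotein that recruits VCP, had 153, 137 and 121 TPM across the controls and 148, 133 and 147 TPM with ArA, all within the control range. VCP itself, the ATPase that extracts the chains, had 305, 346 and 315 TPM across the controls and 359, 344 and 344 TPM with ArA, with control replicate 2 just above both lower ArA libraries. SEL1L, DERL1 and DERL2 lay between 0.02 and 0.06 on the relative log2 scale, and each overlapped between groups.

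Summed by role, folding genes made up 10150, 9765 and 8815 TPM in control libraries 1 to 3 and 10902, 10379 and 10335 TPM in ArA libraries 1 to 3. The ratio of group means was 1.10, and the groups were apart. For translocation the sums were 2806, 2765 and 2661 TPM across the controls and 2737, 2914 and 2987 TPM with ArA (ratio 1.05), with overlap. For degradation they were 1292, 1259 and 1144 TPM across the controls and 1364, 1294 and 1342 TPM with ArA (ratio 1.08), apart by a narrow margin. Mitochondrially encoded transcripts took 31.6 to 32.9% of TPM in control libraries and 32.1, 28 and 26.9% in ArA libraries, and TPM are shares of a fixed total. As a share of all other transcripts, folding genes were 1.41 ± 0.114% in control and 1.49 ± 0.104% in ArA libraries (SD, n = 3 each). Translocation genes were 0.405 ± 0.0146% and 0.406 ± 0.00285%, and degradation genes 0.182 ± 0.0130% and 0.188 ± 0.0114%. On this scale the groups overlapped for all 3 roles.

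**Figure D3:**
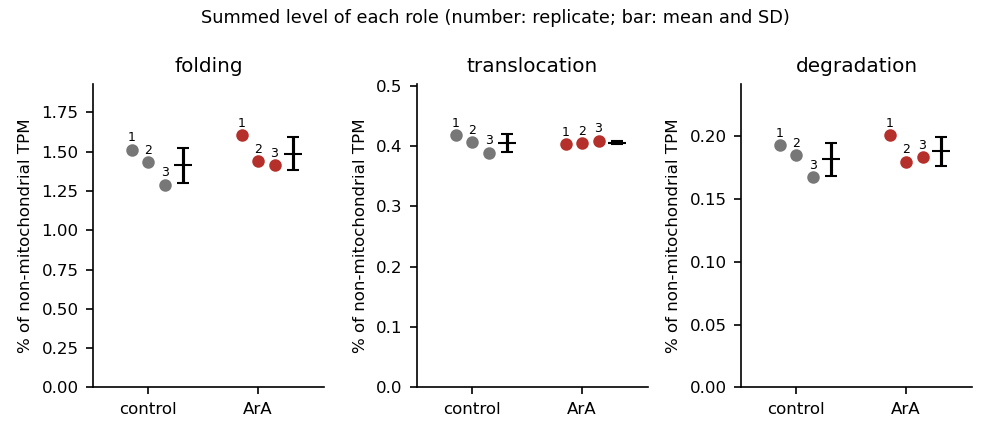
Summed TPM of each role as a percentage of all TPM that is not mitochondrially encoded (y axis, from 0), per library (number: replicate), with the mean and SD of each group. Control replicate 3 is lowest in every panel, ArA replicate 1 is highest for folding and degradation, and the groups overlap.

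The medians of the 3 roles moved when single libraries were left out. For each library, the median over a role's genes of the log2 ratio to the control mean, less the same median over all genes, was taken as its score. Folding scores were 0.08, 0.08 and -0.15 in control and 0.22, 0.03 and 0.04 in ArA libraries. Degradation scores were 0.06, 0.13 and -0.19 in control and 0.23, 0.04 and 0.02 in ArA libraries. Control replicate 3 was thus the lowest and ArA replicate 1 the highest for both, while among the other 4 libraries both controls were above both ArA libraries. Translocation scores were 0.05, -0.01 and -0.04 in control and 0.09, 0.05 and 0.10 in ArA libraries, a narrower range. Within-group SDs, pooled over both groups, were 0.12 for folding, 0.14 for degradation and 0.04 for translocation. The mean ArA score less the mean control score was 0.10 for folding and 0.10 for degradation, both smaller than their SD, and 0.08 for translocation, larger than its SD although the libraries overlapped. Without control replicate 3 the median relative log2 fold changes were 0.012, 0.011 and 0.0080 for folding, degradation and translocation. Without ArA replicate 1 they were 0.032, -0.0021 and 0.027. Without control replicate 1 the translocation median was 0.10 and the folding median 0.14. The difference between roles was not tested.

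Levels differed far more between members than between groups. PPIB (mean 2390 TPM), CALR (1720 TPM) and P4HB (966 TPM) led and together held 35.9% of the members' TPM. At the low end were FBXO2 (8.81 TPM), DNAJB9 (8.55 TPM) and ERO1B (4.88 TPM). FBXO2 and DNAJB9, neighbours in this order, did not differ beyond their spread over all libraries; FBXO2 lay below DNAJB9 in control means (6.68 against 8.23 TPM) and above it in ArA means (10.95 against 8.88 TPM). P4HB, SEC61G and CANX (966, 919.6 and 884 TPM) were likewise within each other's spread. In all, 28 members had a mean of 100 TPM or more and 3 were under 10 TPM, and the median member had 136 TPM where the median tested gene had 11.4 TPM.

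Spread within the groups followed the GC content of the transcripts. HSP90B1, chosen after its values were seen, had 493, 236 and 401 TPM across the controls and 308, 434 and 468 TPM with ArA. Control replicate 2 and ArA replicate 1 were the low libraries, and its longest transcript has 41.2% GC. SEC62, DNAJC3, SPCS3, FKBP14 and ERO1B had the same pair of low libraries. In all, both were the lowest of their group for 17 of 46 members (37.0%, beside 44.6% of all genes), whose median GC was 39.4%. For 15 members (32.6%, beside 12.1% of all genes) both were the highest of their group, among them CALR, P4HB, PPIB, HYOU1, PDIA4, SEC61A1, SYVN1 and FBXO2, with a median GC of 53.8%. The other 14 members showed neither order.

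**Figure D4:**
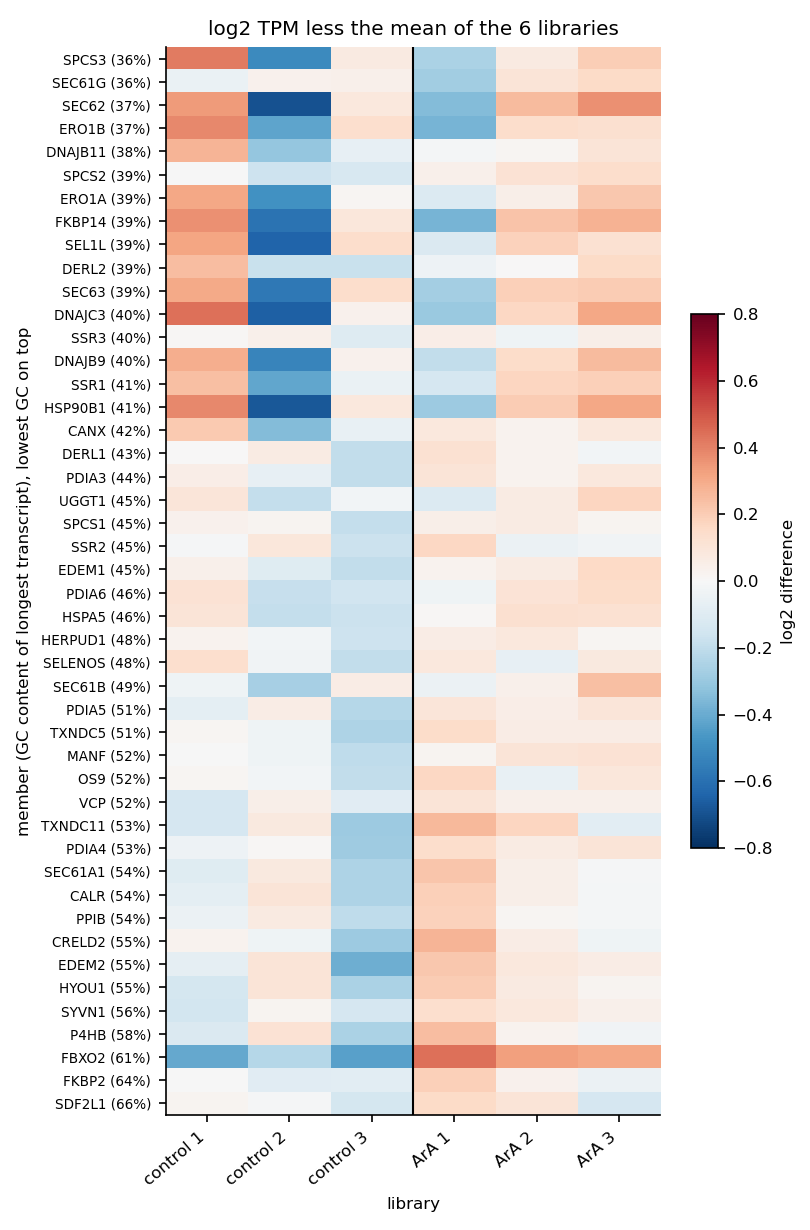
Log2 TPM of each member in each library less its mean over the 6 libraries (colour; blue low, red high), members ordered by GC content of the longest transcript from 36% at the top to 66% at the bottom. Most low-GC members are blue in control replicate 2 and ArA replicate 1, but not SSR3, and SEC61G only in ArA replicate 1; the difference between the groups is faint except for FBXO2.

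Across the 46 members, the log2 ratio of control replicate 2 to the mean of the other controls correlated with the log2 ratio of ArA replicate 1 to the mean of the other ArA libraries (Pearson r 0.89, Spearman rho 0.85). GC content correlated with both ratios (r 0.71 and 0.76), and more weakly with the relative log2 fold change (r 0.50, rho 0.55; r 0.49 without FBXO2). These are descriptions across genes that share the same 6 libraries, so genes are not independent replicates here. After each library's trend with GC content had been removed, 43 of 46 members lay above the median of all genes and the role medians were 0.09, 0.04 and 0.06 for folding, translocation and degradation. FBXO2, MANF and SYVN1 were then the members without overlap (3 of 46, beside 4.9% of all genes), and FBXO2 had a log2 fold change of 0.58 (SE 0.08). SPCS2 had 0.17 (SE 0.16) in that fit, its SE having been 0.08 before.

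**Figure D5:**
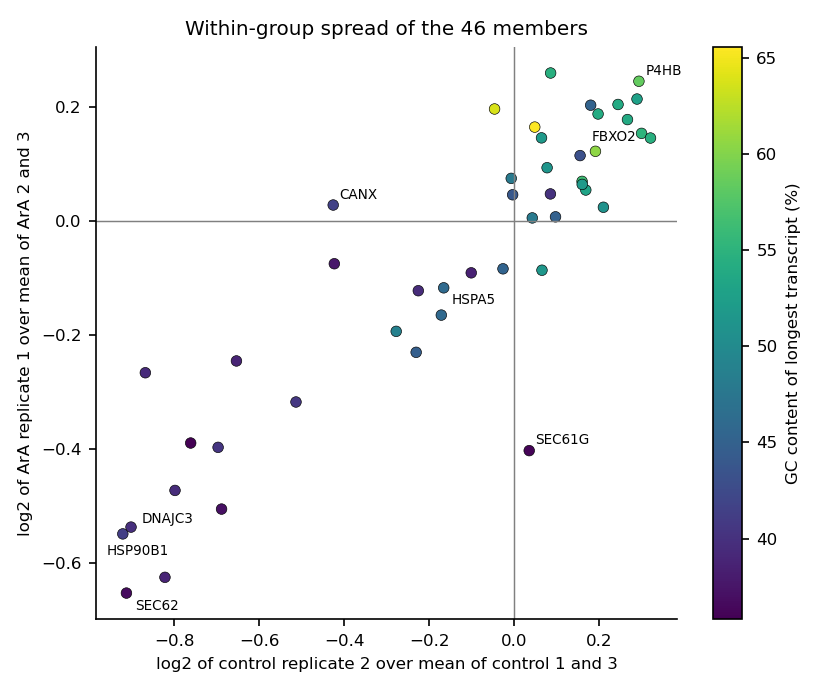
Each point is a member: log2 ratio of control replicate 2 to the mean of controls 1 and 3 (x axis) against log2 ratio of ArA replicate 1 to the mean of ArA 2 and 3 (y axis), coloured by GC content of the longest transcript in percent. HSP90B1, DNAJC3 and SEC62 lie at the low end, P4HB at the high end, and SEC61G lies off the diagonal.

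Ratios between partner genes, chosen after their values were seen, are given as further values of that spread. HSP90B1 over HSPA5, the 2 major luminal chaperones, was 0.677, 0.398 and 0.664 in control and 0.452, 0.585 and 0.635 in ArA libraries. SEL1L over SYVN1, partners in 1 complex, was 0.715, 0.329 and 0.628 in control and 0.439, 0.559 and 0.549 in ArA libraries. CANX over CALR was 0.628, 0.376 and 0.584 in control and 0.475, 0.506 and 0.549 in ArA libraries. SEC61G over SEC61A1 was 2.75, 2.58 and 3.24 in control and 1.88, 2.76 and 2.97 in ArA libraries. Of 6 such ratios computed, 5 had all ArA values inside the control range, and SEC61G over SEC61A1, with ArA replicate 1 below it, did not.

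All 7 members with an ERSE match overlapped between groups. Only 6 of all 46 members and 8.05% of all genes were without overlap in either direction. Overlap in so few genes therefore cannot set those with a match apart from the others. They had a median relative log2 fold change of 0.09, ranging from -0.12 (ERO1B) to 0.14 (CRELD2), where the 35 genes with a window and no match had a median of 0.06 and a range of -0.07 to 0.58. With ERSE-II added, 10 genes had a median of 0.09 and the other 32 a median of 0.07. HYOU1, SDF2L1 and HERPUD1, with the ERSE-II letters, overlapped between groups too. None of the 6 members without overlap had an exact match to ERSE or ERSE-II in its window. Inexact copies and sequence outside the window were not searched, so an element there would be missed. The 6 genes with a UPRE match had a median of 0.12, from -0.02 (SSR3) to 0.16 (TXNDC11), and the other 36 a median of 0.07. Median GC content was 51.65% in the 6 and 45.93% in the 36. Across members the relative log2 fold change rose with GC content (Pearson r 0.50). Whether the difference goes with the motif or with GC content was not tested. Of those 6, TXNDC5 was without overlap between groups, again too few genes to set beside the share of all genes.

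Other genes of the same pathways, listed with earlier results known, were read beside the members, and 0 passed the limma test in any list. Among 23 tested further ER folding genes 17 lay above the median of all genes, with a median of 0.07. The smallest p there belonged to FKBP11, a prolyl isomerase of secretory cells, with 2.81, 2.60 and 4.37 TPM across the controls and 1.27, 1.71 and 2.46 TPM with ArA, lower without overlap. Genes of ER entry and N-glycosylation lay above the median in 27 of 30 cases (median 0.08), led by STT3A, a catalytic subunit of oligosaccharyltransferase. STT3A had 162, 163 and 149 TPM across the controls and 184, 184 and 186 TPM with ArA, higher without overlap.

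Further ERAD genes were above the median in 15 of 24 cases (median 0.04), and SEL1L3, a relative of SEL1L, had the smallest p. SEL1L3 had 19.1, 17.2 and 16.1 TPM across the controls and 22.8, 23.5 and 23.0 TPM with ArA, without overlap. Of 20 sensors and regulators of the unfolded protein response 14 were above the median (median 0.03), with the smallest p for MBTPS1, the protease that cleaves ATF6. MBTPS1 had 69.2, 64.9 and 58.9 TPM across the controls and 81.2, 73.6 and 71.0 TPM with ArA, without overlap. Cytosolic heat shock genes, a folding system outside the ER, were above the median in 6 of 20 cases (median -0.02), and their smallest p belonged to HSPA1A, at 2.17 to 3.10 TPM in control and 3.07 to 3.90 TPM in ArA libraries.

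Of the line's mesenchymal markers, VIM (1335 to 1515 TPM), CD44 (304 to 376 TPM) and AXL (259.9 to 349 TPM) were abundant in all 6 libraries, EGFR had 57.1 to 79.9 TPM, ZEB1 2.73 to 5.45 TPM and SNAI2 1.01 to 1.62 TPM. Luminal ESR1 (at most 0.03 TPM), PGR (listed at 0) and CDH1 (at most 0.17 TPM) were near 0, while ERBB2 had 31.99 to 41.8 TPM and GATA3 and FOXA1 2.88 to 4.36 TPM. Of the blood markers, HBA1 and HBB were listed at 0 and PTPRC and CD14 had at most 0.15 and 0.36 TPM. The 6 fibroblast or muscle markers summed to 9.74 to 13.97 TPM.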

How the data were processed

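RNA was measured by RNA-seq in 6 libraries, 3 per group, grouped by sample title. The authors deposited 1 table of TPM values. The submitters' processing notes name HISAT2, StringTie and RSEM and the build hg38. Tool versions, annotation and strand setting were not given in the sources used here. Because TPM keeps no read totals, depth is unknown, and the spread between libraries is the only measure of precision. No 2 libraries had identical values, and 50 lines naming no gene were left out.

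Values were put on the log2(TPM + 1) scale (pseudocount 1). The fit used limma 3.58.1 under R 4.3.3 on genes whose mean reached 1 TPM (lmFit, eBayes with trend, group as the only term, 2-sided, Benjamini-Hochberg over 12999 genes, threshold 0.05), after the script had been tested on simulated data. Tables were summarised in Python 3.11.15. Folds of means are ratios of mean TPM. GC content (longest transcript) and coordinates came from GENCODE v29, with GC for 97.2% of tested genes, and were used in a natural spline correction of 5 degrees of freedom per library. Promoter windows came from RefSeq; protein sequences were not used here.

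Members and lists were chosen with earlier results of these data known. Library values were printed for HSPA5 and, within each of 10 finer roles (chaperones, lectins, disulfide and prolyl isomerases, translocon, TRAP, signal peptidase, recognition, membrane complex, extraction), for the members with the highest mean TPM, the highest and lowest relative log2 fold change, the smallest p, or groups without overlap; outside the members, for the smallest p per list. Any other gene was named after its values were seen. In all, 19 alternatives were run: scalings, pseudocounts, filters, replicate block, GC correction, variance settings and left-out libraries.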

Additional observations from a re-analysis of the deposited data

How the results depend on the processing

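With array weights 1 member passed, FBXO2, at a log2 fold change of 0.66; in the other 18 alternatives 0 members did. The 6 members without overlap became 2 with median-of-ratios scaling, 1 with quantile normalization and 2 without mitochondrially encoded genes. With the GC correction (also with the replicate block) they became 3. Beside these, 2.93%, 3.01%, 3.36% and 4.9% of all genes were higher without overlap. With libraries left out the count did not fall under 6. Fewer libraries overlap less by construction, and no share of all genes is given for those fits. That count is therefore not a result about the members. Over all genes, the 3 calls became 5 with the GC correction, 214 with array weights, 12 without both libraries, and 0 to 7 with 1 library left out, 0 of them without control replicate 1 or without ArA replicate 2 (413 and 228 genes at an unadjusted p under 0.05 in limma). Same-numbered libraries had correlations of -0.16, -0.28 and 0.11 between their deviations from the group mean. Control replicate 2 and ArA replicate 1, which shared a GC-linked profile, had 0.29. Deviations within a group sum to 0 by construction, so these values cannot settle whether equal numbers mark shared cultures. The replicate block gave 0 calls (232 genes at an unadjusted p under 0.05 in limma) and changed no member's call.

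The summed degradation ratio of 1.08 was 1.02 after quantile normalization, and that of translocation, 1.05, was 1.00 after median-of-ratios scaling and without mitochondrially encoded genes (1.005 and 1.002). The translocation median of 0.03 was 0.075 with no filter on low values and 0.0080 to 0.10 with each library left out. Folding medians stayed between 0.01 and 0.14 and degradation medians between -0.0021 and 0.15 over the 19 alternatives. The cause of these shifts was not tested. In all 20 settings, the main fit among them, 13 members lay above the median of all genes, and 0 lay below it in all. The 13 were HSPA5, HYOU1, MANF, PDIA4, PDIA5, PDIA6, TXNDC5, TXNDC11, SPCS2, EDEM1, EDEM2, FBXO2 and SYVN1. No share of all genes is given beside this count, so whether it is particular to the members cannot be read from it. The settings reuse the same libraries, and some, such as the replicate block, leave the estimates unchanged. Depth is unknown, so precision rests on 3 libraries a group.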

Other observations

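Several members share genomic sequence with other genes, which may limit their values. For genes on opposite strands this holds where counting ignored strand. Genes on the same strand are not separated by a strand setting. GPR137B, on the opposite strand to ERO1B, had a mean of 11.05 TPM where ERO1B had 4.88 TPM. DNAJB9 (8.55 TPM) overlaps PNPLA8 (5.48 TPM) and THAP5 (3.23 TPM) on the opposite strand. DNAJB11 (110 TPM) overlaps the same-strand gene AC068631.2 (32.3 TPM), which had 52.4, 19.4 and 36.7 TPM across the controls and 31.5, 32.9 and 20.9 TPM with ArA. Of the members without overlap between groups, MANF and PDIA4 had no overlapping gene in GENCODE v29, TXNDC5 overlapped the read-through gene BLOC1S5-TXNDC5 (0.14 TPM), and the SPCS2 pseudogene SPCS2P4 had 0.72 TPM.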
